A study of Equus caballus with 78 samples.

Results

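At time point 42 of an equine osteoarthritis model, extracellular vesicles from the synovial fluid of 4 OA joints were set against those of 4 CTRL joints. The rule took every synovial fluid library labelled with that time point, which gave 8 of the 78 libraries of the series, and paired the joints within horses 2, 4, 6 and 8. The series holds small RNA of vesicles from synovial fluid and plasma at 7 time points (0, 10, 35, 42, 49, 56 and 63). All animals are Equus caballus, the domestic horse, and each of the 4 gave 1 OA library, 1 CTRL library and 1 plasma library at time point 42. The labels give no unit for the time points, no breed, age or joint, and no account of how OA was induced or of what the CTRL joint received. Both joints of a pair sit in the same animal, so the CTRL joint belonged to an animal that also carried an OA joint. Levels are CPM, counts scaled to the sum of the library's horse microRNA reads, and the folds of the tests carry TMM scaling on top.

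MicroRNAs are short RNAs that guide Argonaute proteins to matching messenger RNAs and lower their output. Vesicles carry some of them out of the cells that made them. Synovial fluid is fed by the fibroblast-like and macrophage-like cells of the synovial lining, by blood that filters through the synovium, by leukocytes that enter the joint and by cartilage. In such bulk fluid, fewer vesicles of one origin and fewer microRNA copies per vesicle cannot be told apart.

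The libraries of the OA joints were deeper in 3 of the 4 horses. OA joints held 75140, 47966, 42232 and 61828 microRNA reads in horses 2, 4, 6 and 8, and CTRL joints held 46482, 71674, 22468 and 14346. Horse 4 was the exception, and the mean log2 ratio of OA over CTRL was 0.78 ± 1.10 (SD, n = 4 horses, two-sided exact sign-flip permutation p = 0.25). The smallest p that 4 pairs allow in this test is 1 in 8, so none of these single values could pass 0.05. MicroRNA made up 0.578% to 0.735% of the library total in OA joints and 0.482% to 0.833% in CTRL joints, with the remainder of each library outside the horse microRNA names (exact permutation p = 0.625, n = 4 pairs). The library total includes synthetic spike-in reads. The spike-in UniSp2 alone took 28.6% to 38.2% of it in OA joints and 19.6% to 35.7% in CTRL joints. OA libraries listed a read for 77, 75, 85 and 85 microRNAs, and CTRL libraries for 67, 78, 69 and 58. The mean difference was 12.5 ± 12.5 microRNAs (exact permutation p = 0.25, n = 4 pairs), and it was 7.49 ± 10.7 after thinning every library to the 14346 reads of the shallowest (p = 0.375 in the same exact test). The deposited names place horse 6 in another sequencing lane than the other 3 horses, with both joints of each horse in the same lane. All plasma libraries of time point 42 lay in the lane of horse 6. In horses 2, 4 and 8, fluid and plasma thus differ in lane as well, and the 2 cannot be told apart. The plasma library of horse 2 held 3916 microRNA reads, so that 3 reads are 766 CPM there.

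Between the 8 libraries, 135 of 690 microRNA names had a read. Of these, 34 had a read in all 8 libraries and 33 in 1 library only. Presence was close to all or nothing: of the 1080 values of those 135 names, 45% were 0 and 47.3% were 20 reads or more, with 77 values between 1 and 9 reads and 6 between 10 and 19. OA joints alone had a read of 32 names and CTRL joints alone of 15.

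No microRNA passed the comparison of the joints. The test was edgeR's quasi-likelihood test with the horse as a block, on the 60 microRNAs with enough reads in at least 4 libraries. Of these, 0 of 60 (0%) had a Benjamini-Hochberg adjusted p under 0.05, with 0.257 as the smallest. Unadjusted p was under 0.05 for 8 of 60 (13.3%), and for 7 of 58 with near-identical names counted once. Without horse 6, which leaves the horses of 1 lane, 0 passed and 4 were under 0.05 unadjusted. DESeq2 called 5 of the same 60 (8.33%), namely miR-151-5p as higher in OA and miR-215, miR-92a, miR-142-5p and miR-100 as lower, and limma-voom called miR-151-5p alone. The median log2 fold of the 60 was 0.21 in this test, so single folds below are read against 0.21. It was -0.04 with RLE scaling or the library total, -0.15 in DESeq2, -0.13 in limma-voom and -0.09 without the horse as a block. With a horse left out it ran from -0.14 to 0.56. The joints stood in the same order in all 4 horses for 8 higher microRNAs (13.3% of 60) and for 3 lower ones (5.00%). For 3 (5.00%), miR-151-5p and the pair miR-199a-3p and miR-199b-3p, every OA library stood above every CTRL library, and for 0 (0%) every OA library stood below.

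**Figure D1:**
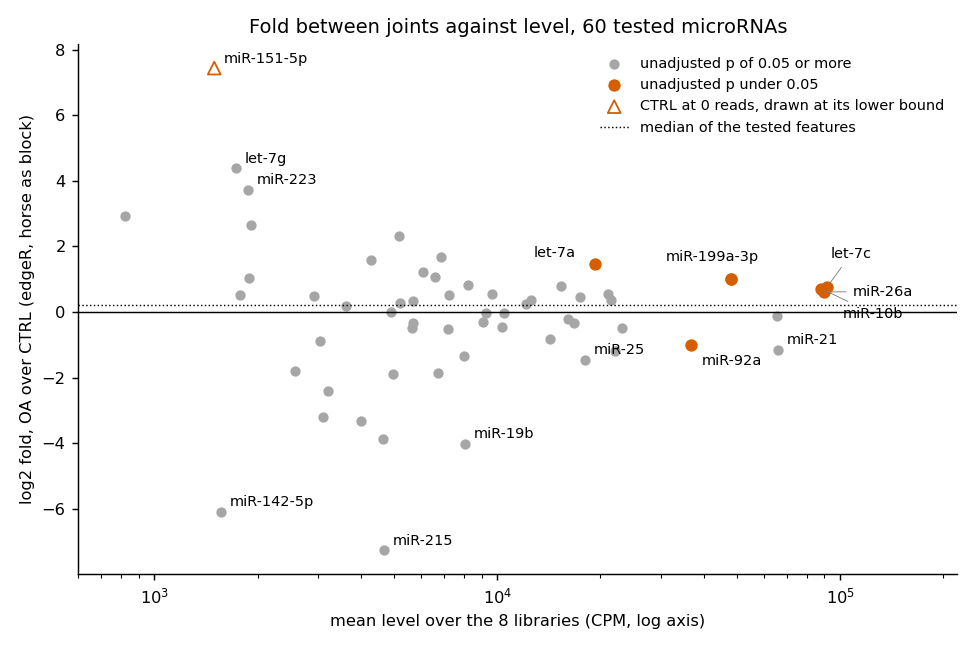
The log2 fold of OA over CTRL from edgeR (vertical axis) is plotted against the mean CPM over the 8 libraries (log axis) for the 60 tested microRNAs. From miR-92a rightward the folds run from -1.14 to 1.00 around the dotted median of 0.21, the wide folds of miR-215 and let-7g lie among scarce microRNAs, and miR-151-5p is drawn at its lower bound because its CTRL libraries were all at 0.

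The let-7 family, whose members share a seed and repress growth-promoting messenger RNAs such as those of RAS and HMGA2, stood higher in OA fluid. Its summed share of microRNA reads was 18.8%, 14.8%, 12.5% and 18.5% in the OA joints of horses 2, 4, 6 and 8, against 12.6%, 6.95%, 6.22% and 13.7% in their CTRL joints. In each horse the share was higher on the OA side, although the 2 sets of values overlap. Of 5 tested members, 4 had a positive fold and 1 a negative fold, 0 passed, and the median log2 fold was 1.45 beside 0.21 over all 60. Among the 4 is let-7g, which passed the filter on low counts mainly through its OA libraries.

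let-7c, the most frequent member, was at 125220, 116020, 77832 and 124604 CPM in OA joints, against 98920, 49055, 39256 and 103513 CPM in CTRL joints. Each horse had the higher value in its OA joint, and the ranges of the joints overlap. Its log2 fold was 0.78 (SE 0.28, unadjusted p = 0.0243, edgeR adjusted p = 0.292). let-7a was at 29918, 19451, 28841 and 29340 CPM in OA joints and at 12478, 4088, 10459 and 19518 CPM in CTRL joints. Only the CTRL value of horse 8 reached above the lowest OA value, that of horse 4, and by a small margin. The log2 fold of let-7a was 1.45 (SE 0.46, unadjusted p = 0.0148, edgeR adjusted p = 0.257). let-7g had 105, 332, 70 and 134 reads in OA joints, against 2, 111, 2 and 0 reads in CTRL joints. It was higher in the OA joint of every horse, with a log2 fold of 4.39 (SE 2.17, edgeR adjusted p = 0.508). Among CTRL joints only that of horse 4 held more than 2 reads of let-7g. It thus passed the filter on low counts mainly through its OA libraries, and its fold adds no separate support. let-7e averaged 7389 ± 4937 CPM in OA joints and 2959 ± 2622 CPM in CTRL joints (SD, n = 4 each), higher in 3 of 4 horses. let-7f averaged 11106 ± 7660 CPM in OA joints and 9874 ± 4016 CPM in CTRL joints, with a log2 fold of -0.02.

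The 2 most frequent microRNAs of the fibroblast and mesenchymal list stood higher in OA fluid in most horses, and scarcer ones lay on both sides. miR-199a-3p, produced with miR-214 from a transcript active in mesenchymal cells, was at 64147, 54726, 60570 and 68836 CPM in OA joints and at 22977, 28239, 32802 and 52070 CPM in CTRL joints. The 4 OA values all lie above the 4 CTRL values, and the pair of horse 8 is the closest. The log2 fold was 1.00 (SE 0.30, unadjusted p = 0.0115, edgeR adjusted p = 0.257). miR-199b-3p had the same count as miR-199a-3p in 8 of 8 libraries, so the 2 names are 1 measurement here.

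miR-10b, whose gene lies among the HOXD genes, was at 150878, 79264, 72741 and 97043 CPM in OA joints and at 65982, 45233, 28796 and 165691 CPM in CTRL joints. Horses 2, 4 and 6 had the higher value in the OA joint and horse 8 in the CTRL joint, whose value was the highest of all 8. Its log2 fold was 0.71 (SE 0.28, unadjusted p = 0.0376, edgeR adjusted p = 0.322). miR-26a, a widely expressed microRNA that targets the chromatin enzyme EZH2, was at 97085, 100863, 106128 and 117067 CPM in OA joints and at 55097, 58194, 77710 and 107486 CPM in CTRL joints. It was higher in OA in every horse, by the least in horse 8, with a log2 fold of 0.61 (SE 0.26, unadjusted p = 0.0483, edgeR adjusted p = 0.362). let-7c, let-7a, miR-26a and miR-199a-3p shared an order, with each horse's OA joint above its CTRL joint and the smallest log2 ratio in horse 8.

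Of the 9 tested members of the mesenchymal list, 5 had a positive and 4 a negative fold, 0 passed, and the median log2 fold was 0.71, which became -0.02 (4 positive, 5 negative) without the horse as a block. With the equal counts of the miR-199 pair entered as 1 feature, 4 folds were positive and 4 negative, with a median of 0.33 beside 0.16 over the 58 then tested. The list took 20.3% to 32.3% of microRNA reads in OA joints and 13.0% to 29.5% in CTRL joints, with miR-199a-3p and miR-199b-3p both in the sum as deposited, and was higher in OA in 3 of 4 horses. Among its members with lower OA values, miR-100, a relative of miR-99a that targets the kinase mTOR, was at 9183, 0, 71 and 1407 CPM in OA joints and at 11123, 2916, 9169 and 3276 CPM in CTRL joints. It was lower in OA in every horse, and its log2 fold was -3.87 (SE 2.79, edgeR adjusted p = 0.872). With 0 and 3 reads in the OA joints of horses 4 and 6, miR-100 passed the filter on low counts mainly through its CTRL libraries. miR-143, characteristic of smooth muscle and fibroblasts, averaged 2925 ± 2579 CPM in OA joints and 6984 ± 4215 CPM in CTRL joints, lower in OA in 3 of 4 horses. miR-125b-5p, a seed relative of the worm lin-4 microRNA, had 114, 89, 94 and 0 reads in OA joints and 0, 62, 1 and 1 reads in CTRL joints.

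**Figure D2:**
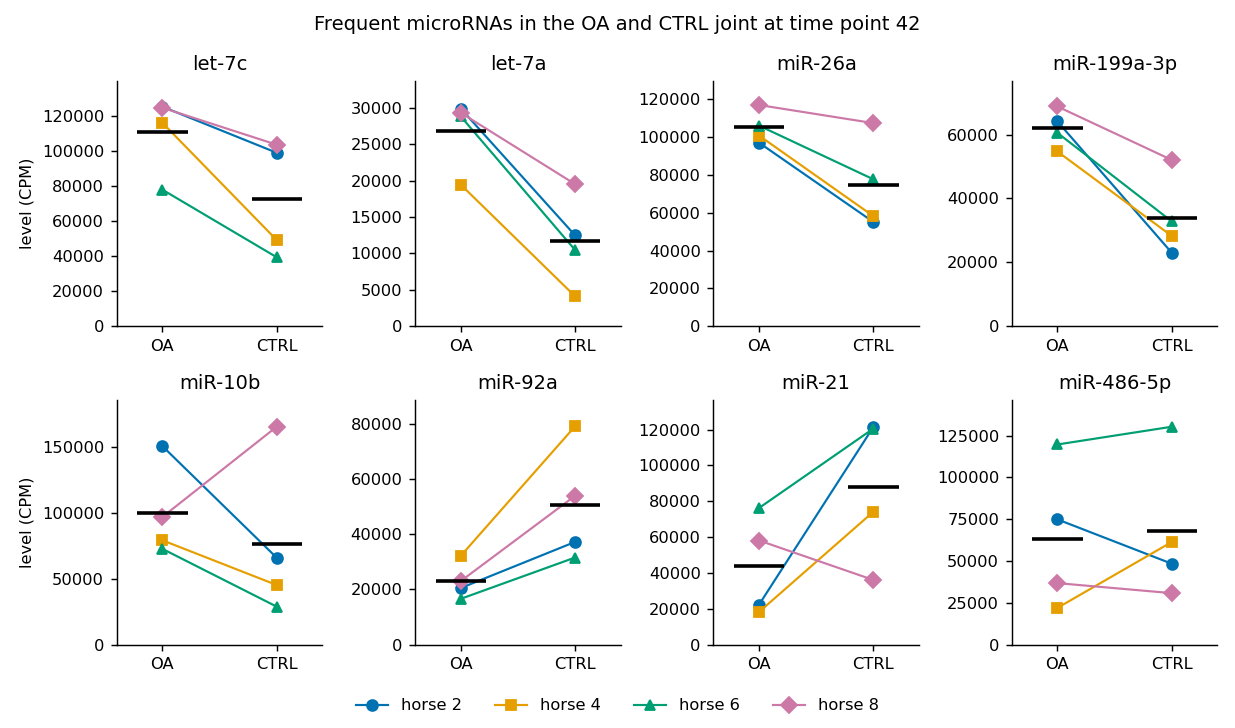
Levels (CPM) of 8 frequent microRNAs in the OA joint (left) and the CTRL joint (right), with a line for each horse and a black bar for the mean of 4. let-7c, let-7a, miR-26a and miR-199a-3p slope down from OA to CTRL in every horse, miR-92a slopes up in every horse, and in miR-10b and miR-21 horse 8 runs against the other 3.

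miR-92a was the frequent microRNA that stood lower in OA fluid in every horse. It belongs to the miR-17/92 cluster, which promotes proliferation, and it is also frequent in red blood cells. It was at 20495, 32169, 16575 and 23016 CPM in OA joints and at 37219, 79164, 31556 and 53952 CPM in CTRL joints. Only the OA value of horse 4 reached above the lowest CTRL value, that of horse 6. The log2 fold was -1.02 (SE 0.33, unadjusted p = 0.0171, edgeR adjusted p = 0.257), and the adjusted p was 0.0176 in DESeq2.

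The other tested members of the miR-17/92 list, miR-19b and miR-25, also had negative folds, so that 3 of 3 were negative, 0 passed and the median log2 fold was -1.45. The list has 8 members with a read, and the others were not tested. Of these, miR-106a, miR-20a and miR-93 had more reads in OA joints (233, 120 and 79) than in CTRL joints (0, 1 and 0). The reads of miR-106a and miR-20a in OA joints came from 1 library each. miR-19a and miR-363 had fewer reads in OA joints (345 and 1) than in CTRL joints (686 and 2). miR-25, encoded in the related miR-106b cluster, was at 3367, 20348, 5138 and 14589 CPM in OA joints and at 33174, 28950, 24969 and 13523 CPM in CTRL joints. Its order turned in horse 8 alone, where the 2 values differed by less than anywhere else, and its log2 fold was -1.45 (SE 0.87, edgeR adjusted p = 0.622). miR-19b, encoded in the same cluster as miR-92a, averaged 3840 ± 4806 CPM in OA joints and 12240 ± 10246 CPM in CTRL joints, and it was at 0 reads in the CTRL joint of horse 8. Together the list took 2.36% to 6.99% of microRNA reads in OA joints and 6.59% to 14.2% in CTRL joints, lower in OA in 4 of 4 horses.

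Red cell microRNAs overlap this list by miR-25 and miR-92a. The erythrocyte list took 11.5%, 13.7%, 15.9% and 12.1% of the reads in the OA joints of horses 2, 4, 6 and 8, against 20.5%, 23.3%, 24.4% and 12.8% in their CTRL joints. It took 15.3% to 58.1% in plasma of the same time point, sequenced in another lane than the joints of horses 2, 4 and 8. Of its 6 tested members, 5 had a negative fold and 1 a positive fold, 0 passed, and the median log2 fold was -0.76. The defining red cell microRNA miR-486-5p was at 74874, 21911, 119696 and 36731 CPM in OA joints and at 48363, 61347, 130319 and 30740 CPM in CTRL joints. It was higher in OA in 2 horses and lower in 2, with a log2 fold of -0.11 (SE 0.45, edgeR adjusted p = 0.942), and it stood at 135587 to 428533 CPM in plasma. miR-451, the other red cell microRNA of high level, was at 3367, 27040, 6133 and 25053 CPM in OA joints and at 30958, 37782, 45754 and 0 CPM in CTRL joints. miR-16 averaged 17407 ± 7537 CPM in OA joints and 28930 ± 18724 CPM in CTRL joints, with a log2 fold of -0.50 (SE 0.55, edgeR adjusted p = 0.872). The part of red cell vesicles in the lower miR-92a was not tested.

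**Figure D3:**
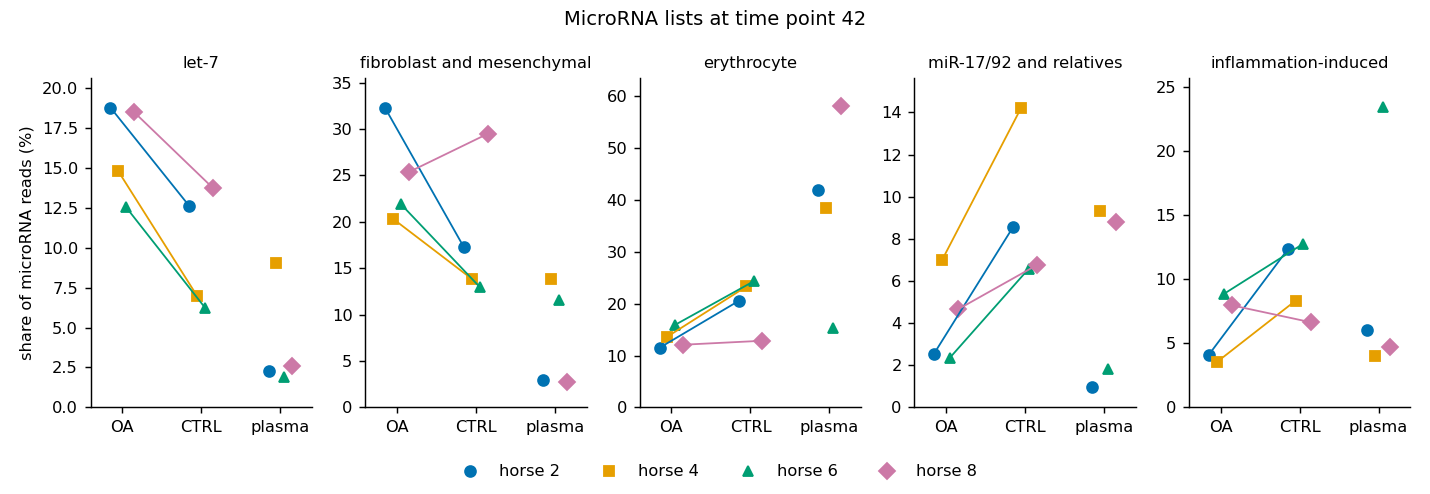
Share of microRNA reads (%) taken by 5 lists in OA fluid, CTRL fluid and plasma at time point 42, with a point for each horse and a line joining the joints of a horse. The let-7 share is higher in the OA joint of 4 horses, the erythrocyte and miR-17/92 shares are lower in the OA joint of 4 horses, and in the mesenchymal and inflammation-induced lists horse 8 runs the other way.

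Of the microRNAs induced in inflammation, miR-21 was the most frequent and stood lower in the OA fluid of 3 horses. miR-21, induced by STAT3 signalling and in fibrosis, was at 22292, 18200, 76246 and 58064 CPM in OA joints and at 121488, 74141, 120571 and 36038 CPM in CTRL joints. It was lower in the OA joint of horses 2, 4 and 6 and higher in that of horse 8, and the ranges overlap. The log2 fold was -1.14 (SE 0.67, unadjusted p = 0.13, edgeR adjusted p = 0.622). Without horse 8 it was -1.88 (SE 0.35) and was the 1 call of that fit (edgeR adjusted p = 0.0053), as it was the 1 call with no filter on low counts (adjusted p = 0.0396).

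miR-146a, a brake on toll-like receptor signalling through IRAK1 and TRAF6, was at 8651, 6380, 8453 and 12502 CPM in OA joints and at 0, 4869, 5474 and 8365 CPM in CTRL joints. It was higher in OA in every horse, with overlapping ranges and a log2 fold of 1.68 (SE 1.79, edgeR adjusted p = 0.872). miR-146b-5p, which shares its seed, averaged 5150 ± 3549 CPM in OA joints and 7012 ± 10117 CPM in CTRL joints, with a log2 fold of 1.22 (SE 2.01) that became -0.07 without the block. miR-223, the microRNA of neutrophils and macrophages, had 0, 394, 68 and 207 reads in OA joints and 1, 0, 41 and 0 reads in CTRL joints. miR-155, induced in activated macrophages and lymphocytes, was at 0 reads in the 4 OA joints and at 1 read in 1 CTRL joint. Of the 4 tested members of the inflammation list, 3 had a positive and 1 a negative fold, 0 passed, and the median log2 fold was 1.45, which became 0.57 (2 positive, 2 negative) without the block. The list's share of reads ran the other way, at 3.52% to 8.89% in OA joints and 6.64% to 12.8% in CTRL joints, and miR-21 held most of the reads of the list in every joint.

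miR-151-5p, encoded in an intron of the gene of focal adhesion kinase, was read in every OA joint and in no CTRL joint. It had 360, 103, 20 and 281 reads in the OA joints of horses 2, 4, 6 and 8, against 0 in each of the 4 CTRL joints. With reads pooled over the 4 horses and 3 reads as the floor for CTRL, it was at least 174-fold higher in OA. Single horses do not all reach this bound. The edgeR unadjusted p was 0.0323 (adjusted p = 0.322), and the adjusted p was 0.0146 in DESeq2 and 0.0442 in limma-voom. miR-151-5p passed the filter on low counts through its OA libraries alone, so these p-values add no separate support. A floor of 3 reads corresponds to 41.9 to 209 CPM in single CTRL libraries, and the OA level of horse 6 was 474 CPM. In plasma it was at 0 CPM in horses 2 and 6, at 51.3 CPM in horse 4 and at 20408 CPM in horse 8. In the shallow plasma library of horse 2 a floor of 3 reads is 766 CPM. miR-28-3p, from the related miR-28 hairpin and with it the other tested member of that family, averaged 8091 ± 3364 CPM in OA joints and 6355 ± 3838 CPM in CTRL joints (log2 fold 0.53, SE 1.04). It was higher in OA in 3 of 4 horses, and its fold was negative in limma-voom. Both tested members of the family had a positive fold and 0 passed. The sign of miR-151-5p follows from how it passed the filter, so this count adds miR-28-3p alone.

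A further 4 microRNAs had reads in 3 libraries of one joint and none in the other. None of them was tested, since the filter on low counts asked for enough reads in at least 4 libraries. They were named after their values were seen. miR-1307 had 0, 109, 134 and 67 reads in OA joints and 0 in all CTRL joints. With the reads of the horses pooled it was at least 70.5-fold higher in OA. miR-660 had 125, 235, 0 and 69 reads in OA joints and 0 in CTRL joints, at least 97.6-fold higher over the pooled reads. Neither bound holds in each horse. Of the 79 reads of miR-93 in OA joints, 77 came from horse 6.

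miR-128, frequent in brain and in skeletal muscle, ran the other way. It had 0 reads in the 4 OA joints and 496, 217, 0 and 89 reads in the CTRL joints. With the reads of the 4 horses pooled it was at least 392-fold lower in OA, a bound that does not hold in each horse. In horses 2 and 8 the OA libraries, where it was unread, held more microRNA reads than the CTRL libraries.

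**Figure D4:**
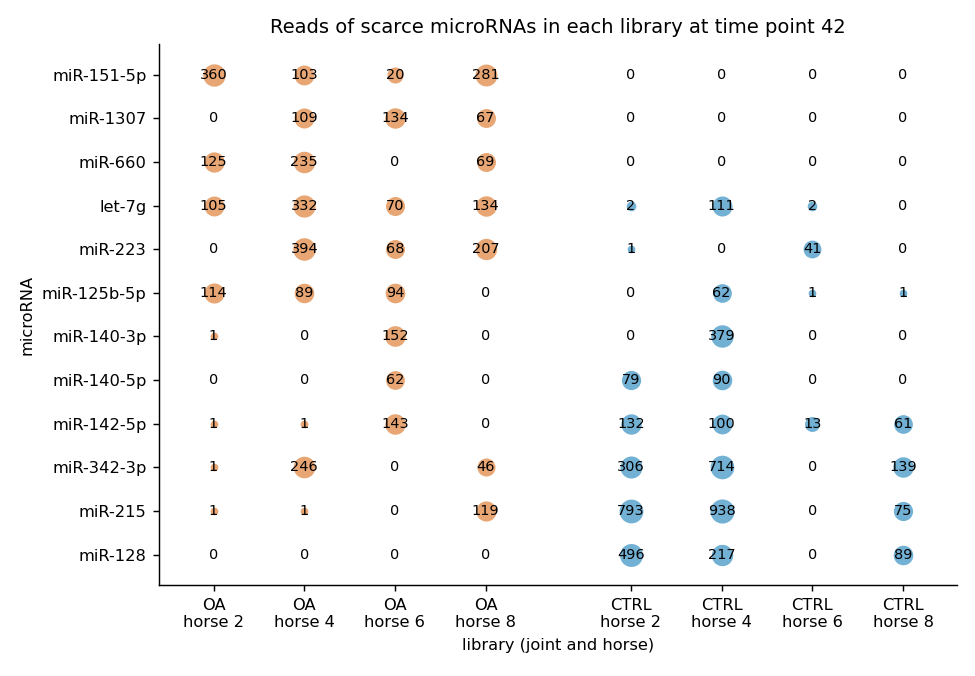
Read counts of 12 scarce microRNAs (rows) in the 4 OA libraries (left columns) and the 4 CTRL libraries (right columns), with dot area growing with the logarithm of the count. miR-151-5p fills the 4 OA columns and none of the CTRL columns, miR-128 shows the reverse in 3 horses, and most other rows mix 0 with counts above 50 within a joint.

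Several scarce microRNAs had wide folds that rested on presence in some horses. miR-215, characteristic of liver and gut, had 1, 1, 0 and 119 reads in OA joints and 793, 938, 0 and 75 reads in CTRL joints. By CPM it was lower in OA in 3 horses and unread in both joints of horse 6, and its log2 fold was -7.26 (SE 3.58, edgeR adjusted p = 0.508). The liver and gut list, which also holds miR-122, miR-192 and miR-194, took 0% to 0.206% of reads in OA joints and 0.523% to 1.90% in CTRL joints. These ranges do not overlap, and plasma was at 0.00389% to 2.18%. The CTRL share came from different members by horse. It was miR-215 in horses 2 and 8, miR-215 and miR-122 in horse 4, and miR-194 (120 reads, in no other of the 8 libraries) in horse 6. Only miR-215 of this list was tested. miR-142-5p, a microRNA of blood-forming cells, had 1, 1, 143 and 0 reads in OA joints and 132, 100, 13 and 61 reads in CTRL joints. Horse 6 stood against the other 3, and the log2 fold was -6.09 (SE 3.42, edgeR adjusted p = 0.622). Among OA joints only that of horse 6 held more than 1 read of miR-142-5p. It thus passed the filter on low counts mainly through its CTRL libraries, and its p-values add no separate support. miR-342-3p, a lymphocyte microRNA, had 1, 246, 0 and 46 reads in OA joints and 306, 714, 0 and 139 reads in CTRL joints.

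Cartilage-associated microRNAs gave no common order. miR-140-5p, the chondrocyte microRNA under SOX9 control, had reads in 1 OA joint (62 in horse 6) and in 2 CTRL joints (79 in horse 2 and 90 in horse 4). Its opposite arm miR-140-3p had 1, 0, 152 and 0 reads in OA joints and 0, 379, 0 and 0 reads in CTRL joints. Neither arm was read in enough libraries to be tested. miR-27b, which targets the collagenase MMP13, averaged 6222 ± 2771 CPM in OA joints and 5119 ± 1894 CPM in CTRL joints (log2 fold 0.32, SE 1.26, edgeR adjusted p = 0.942). miR-148a averaged 18384 ± 7910 CPM in OA joints and 12356 ± 6458 CPM in CTRL joints, higher in OA in 3 of 4 horses. The 3 tested members of the chondrocyte list had positive folds with a median of 0.32, of which 1 turned negative under RLE, library-total and DESeq2 scaling, and 0 passed. miR-29a, which represses collagens, averaged 3818 ± 2894 CPM in OA joints and 9581 ± 9431 CPM in CTRL joints, lower in OA in 3 of 4 horses, and was the 1 tested member of the miR-29 family.

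The remaining lists gave no call either, with 0 passing in each. Of the platelet list, 3 tested members had positive and 4 negative folds (median -0.03), and its share was 4.24% to 7.19% in OA joints and 4.81% to 10.9% in CTRL joints. In the endothelial list miR-126-3p averaged 6305 ± 2504 CPM in OA joints and 6865 ± 7921 CPM in CTRL joints, and miR-126-5p averaged 3785 ± 3454 CPM in OA joints and 7574 ± 6598 CPM in CTRL joints. Of 4 tested members each, the myeloid list (median 1.45) and the lymphocyte list (median 0.36) had 3 positive folds and 1 negative fold. Without the block each had 2 positive and 2 negative folds, with medians of 0.57 in the myeloid list and -0.22 in the lymphocyte list. In limma-voom all 4 lymphocyte folds were negative (median -0.17). The myeloid list shares miR-146a, miR-146b-5p and miR-223 with the inflammation list, so the folds of these 2 lists are not separate results. The miR-30 family had 1 fold on each side, with miR-30d at 0.55 and miR-30e at -0.01. The miR-23/27/24 clusters had 2 positive and 3 negative folds (median -0.30), with miR-23b at 6851 ± 7868 CPM in OA joints and 9112 ± 6834 CPM in CTRL joints and lower in OA in every horse. The skeletal muscle list took 0% in every OA joint and at most 0.244% in CTRL joints, the epithelial list at most 0.26% in OA joints and 0.209% in CTRL joints, while 41 of the 49 names of the DLK1-DIO3 cluster had no read in the 8 libraries and the rest took 0.101% to 0.471% in OA joints and 0% to 1.65% in CTRL joints.

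Set beside the 22 horse pairs of the other 6 time points, the orders seen at time point 42 were not seen at each time point. Over those 22 pairs the OA joint held the higher CPM in 12 for let-7a, 12 for let-7c, 11 for miR-26a, 11 for miR-199a-3p and 9 for miR-92a. In 6 of the 22 pairs (horse 6 at time points 0, 10 and 49, and horses 2, 4 and 6 at 56) the OA library lay in another sequencing lane than the CTRL library. In the 16 pairs within a lane the OA joint was the higher in 9 for let-7a, 10 for let-7c, 8 for miR-26a, 8 for miR-199a-3p and 6 for miR-92a. At time point 0 as well, let-7c was higher on the OA side in each of the 4 horses, when OA joints averaged 118578 ± 44790 CPM and CTRL joints 77464 ± 36931 CPM. It was higher in OA in 1 of 4 horses at time points 49 and 56 and in 1 of 3 at time point 63. let-7a averaged 26887 ± 4977 CPM in OA joints and 11636 ± 6356 CPM in CTRL joints at time point 42, and 22036 ± 5085 CPM in OA joints and 20791 ± 5256 CPM in CTRL joints at time point 56, where 3 of the 4 pairs were split between lanes. miR-92a was higher in OA in 4 of 4 horses at time point 0, at 41665 ± 16444 CPM in OA joints and 29552 ± 9615 CPM in CTRL joints, and lower in 3 of 3 horses at time point 10 and 4 of 4 at time point 42. miR-21, lower in 3 of 4 horses at time point 42, was higher in OA in 3 of 3 horses at time point 10, at 99276 ± 1267 CPM in OA joints and 72818 ± 9346 CPM in CTRL joints. miR-151-5p was at 0 reads in every CTRL joint and read in every OA joint at time point 63 as well (3 horses, with 1, 102 and 87 reads in OA), and at 56 it was at 0 in 3 of 4 CTRL joints. At time point 10 CTRL joints held up to 256 reads of it. At time point 35 all 4 CTRL joints held reads (179, 80, 92 and 124 in horses 2, 4, 6 and 8), and OA was higher in 1 of 4 horses. At 49 miR-151-5p was higher in OA in 2 of 4 horses. Over the 22 pairs OA was higher in 12, and 2 pairs were at 0 in both joints.

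**Figure D5:**
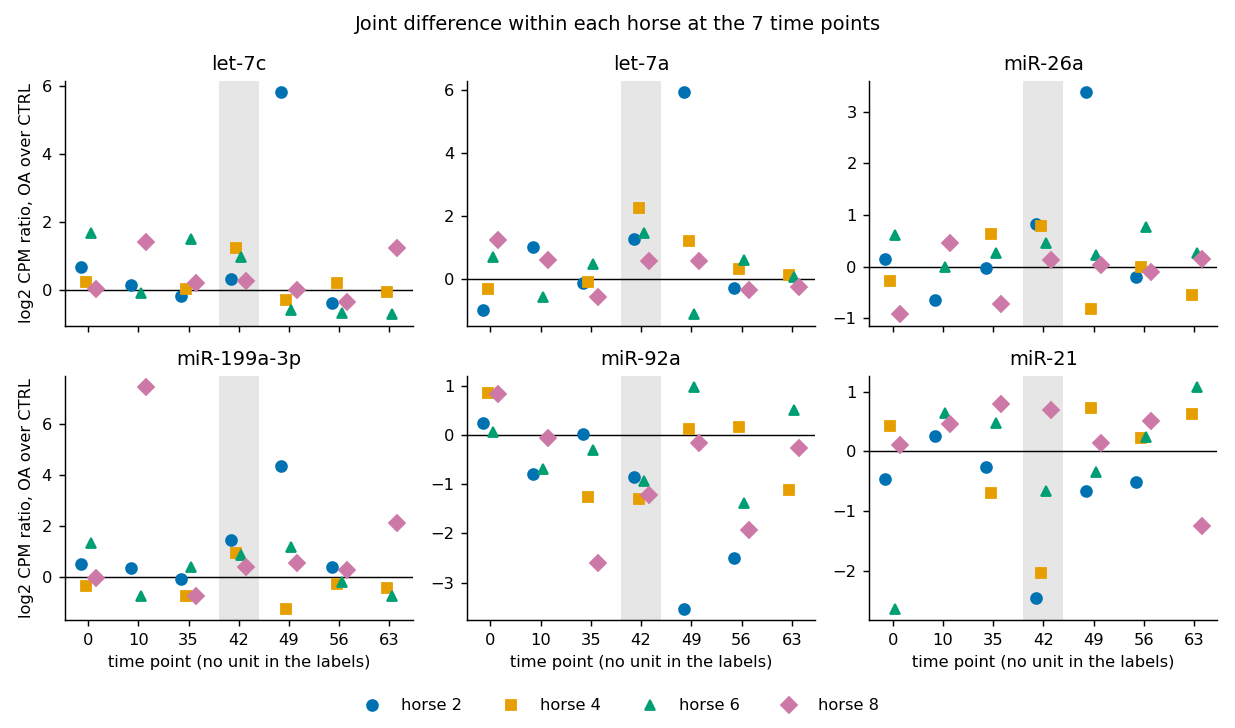
The log2 CPM ratio of OA over CTRL within each horse (vertical axis) at each of the 7 time points (horizontal axis, no unit in the labels) for 6 frequent microRNAs, with time point 42 shaded. At time point 42 the 4 horses lie on the same side of 0 for let-7c, let-7a, miR-26a, miR-199a-3p and miR-92a, and at most other time points they lie on both sides.

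The difference between the joint contrasts was tested in 1 fit of all 52 synovial fluid libraries with edgeR and the horse as a block. Against time point 0, 2 of 139 microRNAs (1.44%) passed, miR-8993 (adjusted p = 0.00704) and miR-93 (adjusted p = 0.0422), with 17 at an unadjusted p under 0.05. Both rest on few libraries. At time point 42 miR-8993 had 34, 0, 153 and 0 reads in OA joints and 0 in CTRL joints, and at time point 0 it had 0 reads in OA joints and 48, 0, 0 and 775 in CTRL joints. At time point 0 miR-93 had 0 reads in OA joints and 0, 33, 0 and 90 in CTRL joints. With 1 horse left out, miR-93 passed in 0 of 4 fits and miR-8993 in 1, that without horse 4, and neither passed without the block. With the lane as a covariate miR-8993 alone passed (adjusted p = 0.0303). DESeq2 called 20, both among them. Its log2 differences of 49.0 for miR-8993 and 51.5 for miR-93 are too wide to be read as folds.

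Against the mean of the 6 other time points, 0 of 139 (0%) passed in edgeR, 3 had an unadjusted p under 0.05, and DESeq2 called 21. The joint contrast of miR-21 was lower at time point 42 than that mean by a log2 difference of -1.11 (SE 0.58, unadjusted p = 0.0577, adjusted p = 1). For let-7a the same difference was 0.92 (SE 1.00), for miR-199a-3p 0.57 (SE 0.63) and for miR-92a -0.55 (SE 0.76), each with an adjusted p of 1. The fit gave miR-151-5p no usable error in this contrast. DESeq2's 21 calls held miR-21 (log2 difference -1.43, adjusted p = 0.0361) and miR-151-5p. Its log2 differences of 20.4 for miR-151-5p, 31.0 for miR-93 and -19.4 for miR-155 are too wide to be read as folds. At time point 42 miR-155 had 1 read in the 8 libraries. With the lane as a covariate 0 passed, the difference of miR-21 was -1.23 (SE 0.60, edgeR adjusted p = 1), and that of miR-92a was -0.30 (SE 0.77).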

How the data were processed

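Libraries were prepared with the TriLink CleanTag kit, per the labels' protocols. The submitters' processing notes name cutadapt, Bowtie, edgeR and the horse build EquCab3.0. They state no versions, and the counting of reads that match several near-identical names is not given in the sources used here. Each deposited file lists raw counts per microRNA name as whole numbers. It also lists the authors' RPM column, which served only to recover library totals, and a second normalized column that was not used. Counts of the horse microRNA rows were analysed, and synthetic spike-ins were kept out of library sizes. The exception is the alternative with the library total as size, since that total includes spike-in reads.

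The 60 features kept by filterByExpr (count minimum 10) were tested with edgeR 4.0.16 in R 4.3.3 (quasi-likelihood F-test, TMM scaling, horse as block, Benjamini-Hochberg at 0.05). The SE given with an edgeR log2 fold is the size of the fold over the square root of its F statistic. It restates the test result and is not a separate estimate of error. The block follows the labels, since same-numbered libraries come from the same horse. Deviations of the 2 joints from their group means correlated at 0.11, 0.23, 0.25 and -0.03 in horses 2, 4, 6 and 8. DESeq2 1.42.0, limma 3.58.1 (voom), RLE scaling, the library total as size, no filter, no block, all 52 synovial fluid libraries in 1 fit, near-identical names counted once, and each horse left out were alternatives. The lane as a covariate in the fit of all 52 libraries, and a count of pairs within a lane, were added after seeing the data. Values with 1 number per library were tested by two-sided exact sign-flip permutation over horses in Python 3.11.15 with numpy 2.4.6.

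Named microRNAs were the 12 with the smallest p per direction, the 10 most frequent, a panel of joint-related microRNAs, and those read in all 4 libraries of one joint and none of the other. Members and lists were chosen with earlier results of these data known. p-values from the 8 libraries of time point 42 measure the spread between 4 horses. Those from the fit of all 52 synovial fluid libraries, which include the calls of miR-8993 and miR-93, rest on another spread. It is pooled over repeated libraries of the same horses across the time points. Floors cover counting error only.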

Additional observations from a re-analysis of the deposited data

Results flagged for a closer look

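Within a joint, 15 of 76 sets of 4 libraries held a library far from the other 3, where chance alone flags about 1 in 20 sets, and sets that mix 0 with high counts are flagged readily. In OA joints these were let-7a of horse 4 (low, 19451 CPM), and as high values let-7g of horse 4 (6922 CPM), miR-342-3p of horse 4 (5129 CPM), miR-100 of horse 2 (9183 CPM), miR-215 of horse 8 (1925 CPM), and miR-142-5p (3386 CPM), miR-140-3p (3599 CPM) and miR-140-5p (1468 CPM) of horse 6. In CTRL joints they were miR-148a of horse 2 (low, 2689 CPM), and as high values let-7g (1549 CPM), miR-125b-5p (865 CPM), miR-140-3p (5288 CPM) and miR-155 (14.0 CPM) of horse 4, miR-223 of horse 6 (1825 CPM) and miR-143 of horse 8 (13244 CPM).

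The joint contrast differed between time points 42 and 0 in edgeR for miR-8993 (adjusted p = 0.00704) and miR-93 (adjusted p = 0.0422), each from reads in a few libraries.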

How the results depend on the processing

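The count of calls between joints was 0 in the fit with the replicate block and also 0 with no replicate block. It was 1 with no filter (miR-21), 5 with DESeq2, 1 with limma-voom, and 0 to 1 with a horse left out (miR-21 without horse 8). Unadjusted p was under 0.05 for 8 microRNAs, against 5 with no block and 7 with near-identical names counted once. Against time point 0 the 2 calls became 0 with no replicate block, 20 with DESeq2, 1 with the lane as a covariate (chosen after seeing the data) and 0 to 2 with a horse left out. The 2 calls without horse 4 were miR-122 and miR-8993. With no filter there were 3, as miR-148b-3p joined miR-8993 and miR-93. Against the other time points the 0 calls became 21 with DESeq2. Of 32 tested named microRNAs, 24 kept their direction under every alternative that could be fitted. The log2 fold turned for miR-146b-5p with no block (-0.066), with all 52 libraries (-0.76) and with all 52 and no block (-0.60), for miR-126-3p in the same fits (-0.19, -0.26 and -0.21), and for miR-27b with no filter (-0.042). With a horse left out, folds ran from -0.38 to 2.61 for miR-146b-5p, -0.10 to 2.09 for miR-126-3p, -1.67 to 1.55 for miR-126-5p and -0.18 to 1.02 for miR-27b. They ran from -0.89 to 0.12 for miR-16, -0.49 to 0.42 for miR-486-5p, -2.43 to 0.56 for miR-451 and -3.40 to 0.30 for miR-29a. The mean log2 ratio of the microRNA share, -0.087, was 0.0075 without spike-in reads in the total, and -0.206 to 0.0599 with a horse left out. The cause of each change was not tested. Depth limits what 0 reads mean, since the floor of 3 reads is 134 and 209 CPM in the CTRL libraries of horses 6 and 8.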
